A study of Homo sapiens with 33 samples.

Results

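The vehicle cultures of Karpas422 were compared between days 3 and 6 to see which of the expression changes that appear in culture last, grow or go back. The comparison rests on the 3 arrays of DMSO on day 6 and the 3 arrays of DMSO on day 3, 6 of 33 arrays, chosen by their titles. It was run over 19775 genes, each read from its brightest probe set by the mean of all 33 arrays. Values are log2 RMA values, so a difference of 1 is a doubling.

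Karpas422 is a human diffuse large B cell lymphoma line, described in the series title as EZH2 mutant. It was grown in RPMI-1640 with 15% fetal bovine serum and sampled at 0 h and then with the solvent DMSO, or with the PRC2 inhibitor EED226 at 5 µM, in 11 groups of 3 arrays; times are given below in days where the design text does so, day 3 being 72 h. EED226 binds the EED subunit of PRC2, the complex that methylates histone H3 at lysine 27. Groups follow the titles, which name EED226, although EI1 appears beside it in the protocol and the design text speaks of an EZH2 inhibitor. The groups used below are 0 h, DMSO on days 2, 3 and 6, and, for a single contrast, EED226 on days 3 and 6. All are the same line, and the labels do not say how the 0 h cells were treated, whether medium was renewed or whether cells were split. Cultures without DMSO on day 3 or 6 were not analysed here, so time in culture and exposure to the solvent cannot be told apart. The series text calls the replicates biological triplicates, and tests below measure the spread between these arrays.

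Cells held in culture meet changing supplies of amino acids, sterols and serum factors, and each has a known transcriptional readout. Sterol shortage releases SREBP2 to the nucleus, where it induces cholesterol synthesis genes, and its relative SREBP1 drives fatty acid synthesis. Type I interferon acts through ISGF3, a complex of STAT proteins and IRF9, on antiviral genes such as the IFIT family. Amino acid shortage activates the kinase GCN2, which raises translation of ATF4, and ATF4 then induces amino acid synthesis enzymes, transporters and the stress genes DDIT3, TRIB3 and CHAC1.

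2 of the 6 arrays stood apart. DMSO day 6 replicate 3 correlated with the other day 6 arrays at 0.987 and 0.986 over all genes, against 0.997 between replicates 1 and 2, and every array pair within the other groups reached at least 0.994. Its 75th percentile was 6.10, against 6.53 and 6.55 on replicates 1 and 2. Most of its spike-in probe sets were dimmer than on those, with BioB at 6.91 against 7.60 and 7.74. CreX was not, at 12.93 against 12.89 and 12.90. In that array 218 genes lay at least 1 log2 unit below and 257 at least 1 above the mean of replicates 1 and 2, while 2 genes lay that far apart between replicates 1 and 2. Its ACTB 3′ minus 5′ difference was 3.29, close to the 3.26 of replicate 2. DMSO day 3 replicate 3 stood apart in fewer genes, with 27 at least 1 above and 3 at least 1 below replicates 1 and 2, and no gene that far apart between those. Of these 27 genes 12 belonged to the amino acid response. Results are therefore given with all arrays and without each of these.

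Promoters are shown for genes that carry the 2 main patterns of the comparison, a response that stayed high from day 3 to day 6 and a response that stood high in a single day 3 array. Each sequence is the 250 bases before an annotated start of the gene, 5′ to 3′ on the gene's strand, from RefSeq on GRCh38.p14. Capitals mark matches to the core of the interferon-stimulated response element, which ISGF3 binds, in IFIT1, IFIT3 and IFI44L, and to TGATGNAA, the core of the composite element of C/EBP and ATF4, in CHAC1 and ASNS. The windows are chr10:89392373-89392622 for IFIT1, chr10:89332279-89332528 for IFIT3, chr1:78620198-78620447 for IFI44L and chr15:40953221-40953470 for CHAC1, all on the plus strand. The window of ASNS is chr7:97872409-97872658 on the minus strand.
IFIT1: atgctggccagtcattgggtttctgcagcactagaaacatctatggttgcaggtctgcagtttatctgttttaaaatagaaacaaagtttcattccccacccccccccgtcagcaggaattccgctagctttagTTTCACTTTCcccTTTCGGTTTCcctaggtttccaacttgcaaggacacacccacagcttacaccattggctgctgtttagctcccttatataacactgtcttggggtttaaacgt
IFIT3: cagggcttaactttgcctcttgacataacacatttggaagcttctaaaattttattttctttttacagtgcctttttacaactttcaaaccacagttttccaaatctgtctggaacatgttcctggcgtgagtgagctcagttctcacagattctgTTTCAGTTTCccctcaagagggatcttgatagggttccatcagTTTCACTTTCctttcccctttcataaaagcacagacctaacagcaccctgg
IFI44L: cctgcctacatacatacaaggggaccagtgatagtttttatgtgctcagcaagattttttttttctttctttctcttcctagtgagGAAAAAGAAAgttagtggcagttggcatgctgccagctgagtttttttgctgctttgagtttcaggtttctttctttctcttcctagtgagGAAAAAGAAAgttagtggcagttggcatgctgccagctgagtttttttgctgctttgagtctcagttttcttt
CHAC1: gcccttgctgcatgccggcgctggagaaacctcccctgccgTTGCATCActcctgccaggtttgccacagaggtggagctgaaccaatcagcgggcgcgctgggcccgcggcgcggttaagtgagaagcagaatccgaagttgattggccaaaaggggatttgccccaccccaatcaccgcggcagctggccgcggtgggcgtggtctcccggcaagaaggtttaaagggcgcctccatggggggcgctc
ASNS: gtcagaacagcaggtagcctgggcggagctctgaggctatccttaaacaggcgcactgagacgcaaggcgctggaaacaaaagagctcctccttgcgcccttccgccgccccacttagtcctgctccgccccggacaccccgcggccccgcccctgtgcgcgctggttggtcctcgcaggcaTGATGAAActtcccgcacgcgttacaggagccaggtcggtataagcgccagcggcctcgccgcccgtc

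The matches begin 116 and 103 bases before the start in IFIT1, 94 and 51 in IFIT3, 164 and 73 in IFI44L, 209 in CHAC1 and 68 in ASNS. Both strands were searched, and each motif was searched without regard to overlap with the others. The core of the interferon-stimulated response element stood in 22 of the 32 interferon response genes with a promoter entry, 68.8%, against 3.02% of 35116 promoters of the same length and 2 of 36 amino acid response genes. TGATGNAA stood in 9 of 36 amino acid response genes, 25%, against 3.14% of all promoters and 2 of 32 interferon response genes. It was not found in the windows of DDIT3, TRIB3 and SESN2, nor in another window of ASNS. The sterol regulatory element stood in 1 of 19 cholesterol synthesis genes, against 0.883% of all promoters. The antioxidant response element core stood in 4 of 15 NRF2 targets and 9 of 36 amino acid response genes, against 10.9%. The serum response element stood in 11 of 35116 promoters and in none of the lists searched. A gene counted if any of its windows matched, while the share of all promoters counts single windows. Genes with several starts thus had more chances to match. A match is a description of the letters in these windows.

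Between days 3 and 6, 1 of 19775 genes passed the test, 0.00506% of those tested, and none passed without DMSO day 6 replicate 3 (limma, Benjamini-Hochberg adjusted p under 0.05). That gene was LRRC15, which encodes a leucine-rich repeat membrane protein best known from fibroblasts. Its log2 values were 3.62, 3.61 and 3.85 on day 3 and 4.36, 4.12 and 4.43 on day 6, after 3.67, 3.72 and 3.87 at 0 h. The 3 values on day 6 lay above all those on day 3 and 0 h, yet the gene sat near the lowest array median of 4.06, where a probe set is dim. LRRC15 rose by 0.61 ± 0.10 (SE, 3 against 3 arrays; 95% interval 0.40 to 0.82; limma adjusted p = 0.0451). Without replicate 3 of day 6 the difference was 0.54 with an adjusted p of 0.864, without replicate 3 of day 3 it was 0.69 with 0.0271, and with the mean of its probe sets it was 0.34 with 0.297. LRRC15 was higher in all 3 arrays of day 6, while the fibroblast and endothelial markers stood higher in day 6 replicate 3 alone. Their median difference was 0.28 over 7 genes and -0.02 without that array. The log2 of their summed level was 7.50 to 7.75 on day 3. On day 6 it was 7.54 and 7.68 in replicates 1 and 2 and 8.26 in replicate 3. Other marker lists stood higher in that array as well: against replicates 1 and 2 the median was 0.41 for the fibroblast and endothelial markers, 0.38 for the 5 epithelial markers and 0.22 for the 9 T and NK cell markers, with -0.07 over all genes. Their part in the result was not tested.

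**Figure D1:**
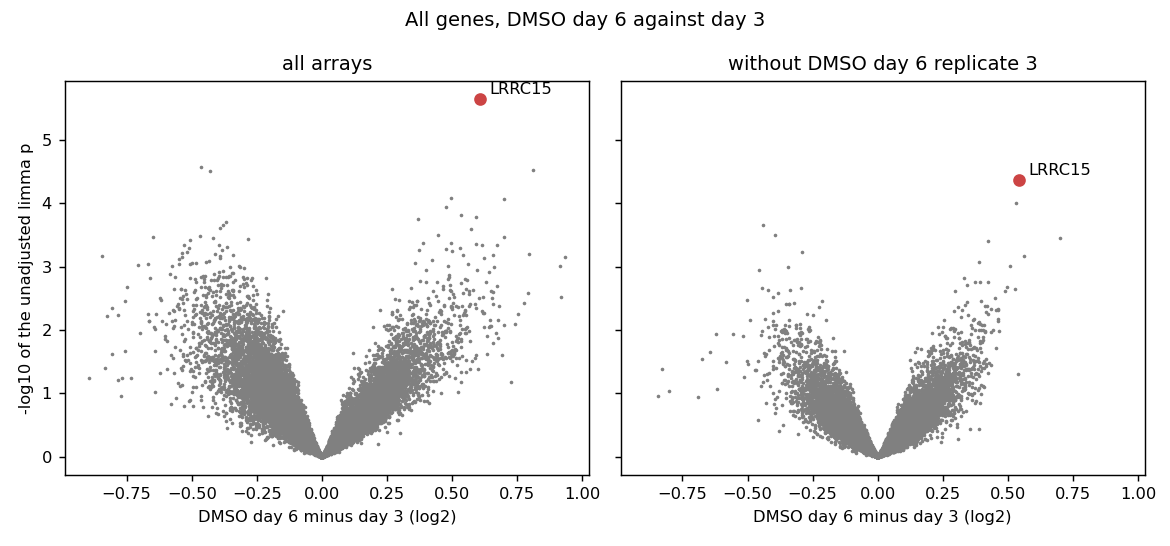
Each point is 1 of 19775 genes, with the log2 difference of DMSO day 6 minus day 3 on the x axis and the -log10 of the unadjusted limma p on the y axis, with all arrays on the left and without DMSO day 6 replicate 3 on the right. LRRC15, in red, is the gene called with all arrays, at 0.61, and on the right it stands at 0.54 and is not called.

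The 95% intervals of the same fit give the size of the remaining differences. The median 95% interval reached 0.244 to either side, and the interval lay within 1 log2 unit of 0, less than 2-fold, for 19649 genes, 99.4%. It lay within 0.5 for 15761 genes, 79.7%. At an unadjusted limma p under 0.05 there were 2480 genes with all arrays and 633 without DMSO day 6 replicate 3. Fitted to the 6 arrays alone there were 715. The median over all genes was -0.02, and 0.00 without that array, and -0.30 and 0.28 were the 5th and 95th percentiles. In 2287 of 19775 genes the values on day 6 did not overlap those on day 3. Groups of 3 values separate this way in many unchanged genes too, so the count does not measure change. In data simulated with independent noise, at each gene's spread pooled over all arrays, the fit found 65.7% of genes shifted by 0.5. It found 97% of those shifted by 1 and 100% of those shifted by 2. The simulation shifted 200 genes, which makes the Benjamini-Hochberg cutoff less strict than in the data, where 1 gene passed. In the data the largest fall and rise over all genes, -0.90 and 0.93, were not called. No simulated array stood apart as DMSO day 6 replicate 3 does either. For both reasons these rates cannot be carried over to the data.

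Leaving out a single array could change the count a great deal. Without DMSO day 6 replicate 2, which leaves replicate 3 with replicate 1, 122 genes passed, 44 higher and 78 lower. Without replicate 1 of day 6 the call moved from LRRC15 to SOAT2, the acyl transferase that esterifies cholesterol. SOAT2 stood at 4.35, 4.48 and 4.45 on day 3 and at 4.71, 5.27 and 5.74 on day 6, against 4.93, 5.08 and 4.83 at 0 h. Its day 6 values lay above the day 3 values and spread around those of 0 h, and the difference was 0.81 ± 0.16 (SE; limma adjusted p = 0.155). It was 0.56 without replicate 3 of day 6, where SOAT2 was called lower on day 3 than at 0 h (adjusted p = 0.0174).

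Of the genes that had changed by day 3, 38% were also called on day 6, and none was called as moving in between. Against 0 h, 598 genes passed on day 3, 3.02% of those tested, 418 higher and 180 lower, and 341 passed on day 6, 1.72%, 164 higher and 177 lower. Of the 598, none was called as growing and none as going back between days 3 and 6. 227 persisted, meaning called at both times in the same direction with no call between them, 150 of these higher and 77 lower. The other 371, 268 higher and 103 lower, were unresolved: no call between the times and none on day 6 against 0 h. These comparisons share arrays, so their calls are not independent.

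The persisting genes and the unresolved ones differed in how much of the day 3 change was left. In the 150 persisting higher genes the median difference from 0 h was 0.68 on day 3 and 0.58 on day 6, with a median of -0.05 between the times. In the 77 persisting lower genes it was -0.39 and -0.40. In the 268 unresolved higher genes it was 0.41 on day 3 and 0.21 on day 6, and in the 103 unresolved lower genes -0.34 and -0.23. Without DMSO day 6 replicate 3 the day 6 medians of the same persisting genes were 0.66 (higher) and -0.33 (lower). Those of the unresolved genes were 0.27 and -0.21. From day 3 to day 6, 69 of the 77 persisting lower genes then lay above 0, with a median of 0.06, against 37 with all arrays. The classes were defined by these contrasts, so the medians describe them and test nothing. DMSO on day 2 shares no array with the comparison of days 6 and 3. The 141 genes called higher on day 2 against 0 h, 0.713% of all, had a median of -0.13 from day 3 to day 6, with 120 below 0. Without DMSO day 6 replicate 3 the median was -0.06 with 97 below 0. Over all genes 56.2% lay below 0, and 49.2% without that array. The 35 genes called lower, 0.177%, had a median of 0.03, with 22 above 0.

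Both arrays that stood apart weighed on these classes. Without DMSO day 6 replicate 3, 953 genes (4.82%) passed on day 3 against 0 h, 653 higher (3.3%) and 300 lower (1.52%), although none of the arrays compared there had changed, and 244 persisted, 215 higher and 29 lower, of which 158 were also among the 227. On day 6 against 0 h, 260 genes (1.31%) were then called, 228 higher (1.15%) and 32 lower (0.162%). Of the 100 genes called lower only on day 6 with all arrays, 7 were called lower without it. Without DMSO day 3 replicate 3, 324 genes passed on day 3, 168 persisted and 156 were unresolved, and of the 371 unresolved genes 141 still passed on day 3. Without both, 219 genes persisted, 148 of them among the 227, and no gene grew or went back. Over these fits the persisting higher genes numbered 126 to 215 and the persisting lower ones 21 to 77.

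**Figure D2:**
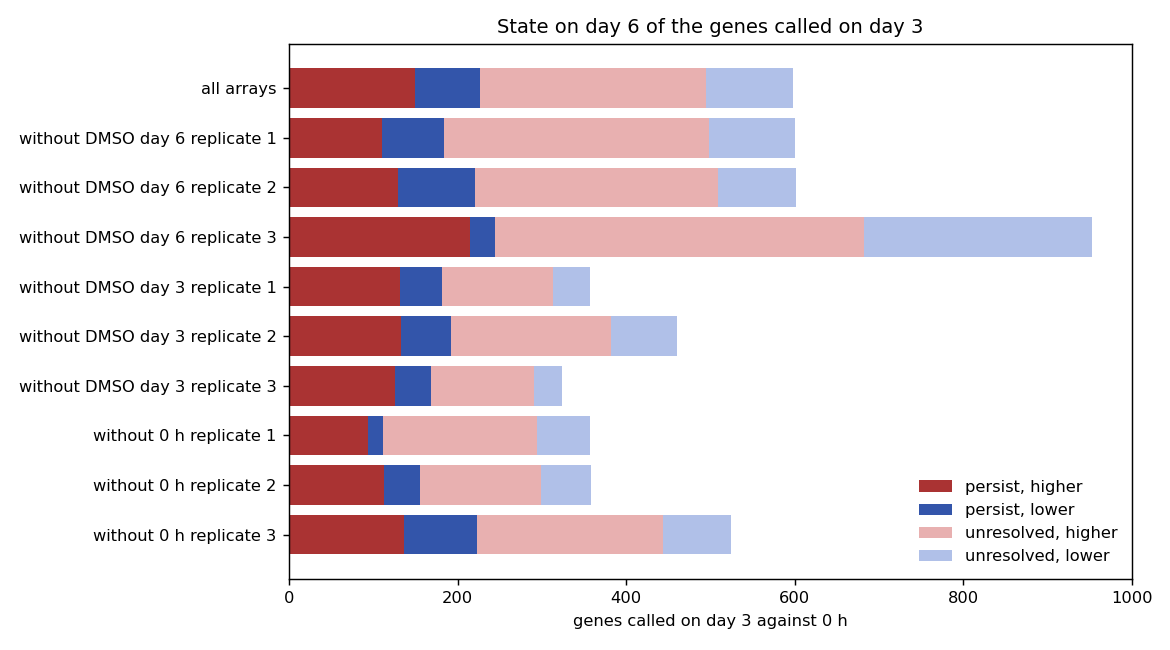
Bars give the number of genes called on day 3 against 0 h, split by their state on day 6 and by direction, with all arrays and with each array of 0 h, DMSO day 3 and DMSO day 6 left out. With all arrays 227 persist and 371 are unresolved; the 1 and 14 genes called as going back without day 6 replicates 1 and 2 are not drawn, and the total is 953 without DMSO day 6 replicate 3 and 324 without DMSO day 3 replicate 3.

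Interferon response genes rose in culture and were still up on day 6. Of 40 measured members 37 rose by day 3 against 0 h and 36 by day 6, where 2.11% and 0.829% of all genes rose, and 35 persisted, with none called between the times. The median difference from 0 h was 1.20 at both times, against -0.01 and -0.02 over all genes. From day 3 to day 6 the median was -0.05, 0.06 without DMSO day 6 replicate 3 and 0.01 after renewed quantile normalization, so it has no stable sign. The mean of the list over 0 h was 1.27, 1.27 and 1.32 on the day 3 arrays and 1.32, 1.36 and 0.99 on the day 6 arrays. Replicate 3 of day 6 was the low one, below the mean of replicates 1 and 2 in 34 of the 40 genes. On day 1 the list had stood at 0.51, 0.40 and 0.65, and on day 2 at 1.21, 1.02 and 1.17.

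IFIT1, an antiviral protein that binds foreign RNA ends during viral infection, was the largest of the persisting genes by its difference from 0 h on day 6. Its values were 6.80, 6.55 and 6.49 at 0 h, 9.38, 9.36 and 9.58 on day 3, and 9.48, 9.53 and 9.23 on day 6. The day 3 and day 6 values overlapped and stood far above 0 h. IFIT1 rose 7.11-fold by day 3 and stood 6.98-fold above 0 h on day 6 (log2 2.83 ± 0.14 and 2.80 ± 0.14 SE; limma adjusted p = 1.79e-13 and 2.28e-13). Between the times the difference was -0.03 ± 0.14 (95% interval -0.31 to 0.25). IFIT3, of the same family, had 9.29, 9.35 and 9.47 on day 3 and 9.42, 9.58 and 9.26 on day 6, after 6.97, 7.05 and 7.03 at 0 h. Its groups on days 3 and 6 overlapped as well, and the difference was 0.05 ± 0.14.

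IFI44L, an interferon-induced gene, shows how replicate 3 entered the day 6 mean. It had 4.88, 4.75 and 4.68 at 0 h, 7.54, 7.69 and 7.62 on day 3 and 7.63, 7.61 and 6.89 on day 6. The first 2 arrays of day 6 lay within the day 3 range and the third was lower, giving -0.24 ± 0.17, and 0.00 without it. IRF7, the factor that amplifies interferon production, had 7.94, 7.75 and 7.95 on day 3 and 7.79, 7.85 and 7.45 on day 6, after 6.08, 6.20 and 5.97 at 0 h. It persisted, 1.62 above 0 h on day 6 (SE 0.12; limma adjusted p = 1.09e-09). OAS1, which makes the second messenger that activates RNase L, persisted at 1.43 above 0 h with 9.48, 9.40 and 9.46 on day 3 and 9.52, 9.48 and 9.47 on day 6. MX1, a GTPase that blocks viral replication, persisted at 1.05 and the ubiquitin-like modifier ISG15 at 1.18.

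The members with the lowest values from day 3 to day 6 were IFIT2 and IFIT5, RNA-binding relatives of IFIT1. IFIT2 had 7.04, 7.15 and 7.43 on day 3 and 6.79, 7.09 and 6.47 on day 6, a difference of -0.43 ± 0.18 (limma adjusted p = 0.362), and -0.27 without replicate 3. IFIT5 had 6.76, 6.97 and 6.85 and then 6.69, 6.75 and 5.93, a difference of -0.41 ± 0.15 (adjusted p = 0.321), and -0.14 without replicate 3. Neither passed, and in both the third array of day 6 was the lowest. IFI27 and RTP4 were unresolved, with 1.03 and 0.76 above 0 h on day 6. RTP4 was called on day 6 without replicate 3 (adjusted p = 0.00915), and the day 3 calls of both were lost without day 3 replicate 3 (adjusted p = 0.124 for IFI27 and 0.0579 for RTP4). Over the arrays left out in turn, 30 to 36 of the 40 members persisted.

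**Figure D3:**
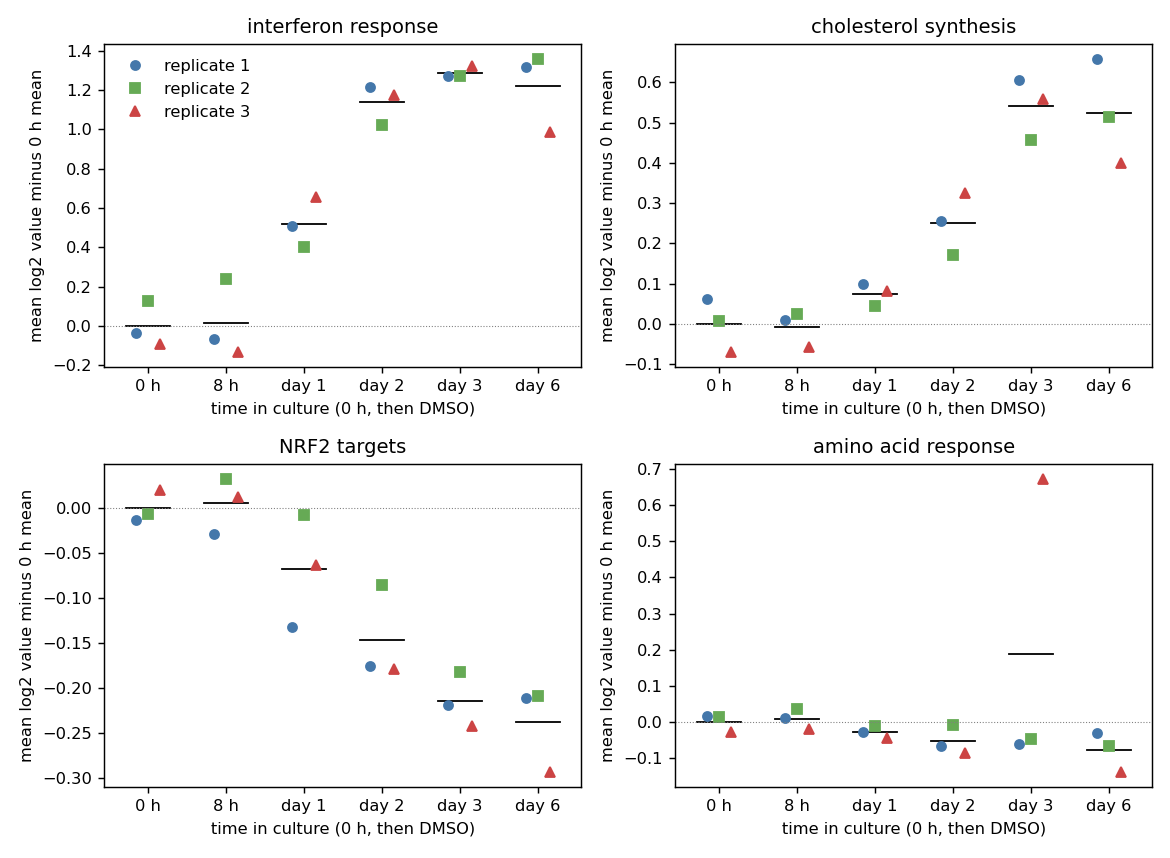
Points give, for each array of 0 h and of DMSO at 8 h and on days 1, 2, 3 and 6 (equally spaced on the axis, not to scale), the mean log2 value of the measured genes of 4 lists minus the mean of the 0 h arrays; colour and shape give the replicate number and the bar the mean of the 3 arrays. The interferon list lies between 1.27 and 1.36 on the arrays of days 3 and 6 except day 6 replicate 3 at 0.99, and the amino acid list is at 0.67 in day 3 replicate 3 and at or below -0.03 in the other arrays of days 3 and 6.

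Most measured cholesterol synthesis genes rose by day 3, and all but 1 of those were called again on day 6. Of 21 measured members 14 rose by day 3 and 13 by day 6, against 2.11% and 0.829% of all genes, and 13 persisted. The median difference from 0 h was 0.48 on day 3 and 0.46 on day 6, with 0.01 between the times and 0.04 without DMSO day 6 replicate 3. The list mean over 0 h was 0.61, 0.46 and 0.56 on the day 3 arrays and 0.66, 0.51 and 0.40 on the day 6 arrays. On day 2 it had been 0.26, 0.17 and 0.32, below every array of days 3 and 6.

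INSIG1, which holds the SREBP escort protein in the endoplasmic reticulum when sterols are plentiful and is itself an SREBP target, led the list. Its values were 9.02, 8.67 and 8.80 at 0 h, 10.74, 10.66 and 10.77 on day 3 and 10.89, 10.55 and 11.01 on day 6. The later groups overlapped each other and not 0 h, with INSIG1 3.97-fold above 0 h on day 6 (log2 1.99 ± 0.15; limma). From day 3 to day 6 the difference was 0.10 ± 0.15. MSMO1, a sterol methyl oxidase, had 11.42, 11.22 and 11.21 on day 3 and 11.48, 11.14 and 11.44 on day 6, 1.04 ± 0.10 above 0 h. In the same pathway the isomerase IDI1 stood 0.84 above 0 h on day 6, squalene epoxidase SQLE 0.65, lanosterol synthase LSS 0.57 and the reductase DHCR7 0.82, all of them persisting.

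HMGCS1, the synthase that makes HMG-CoA, had the highest value of these from day 3 to day 6. It stood at 10.08, 9.89 and 9.71 at 0 h, 10.49, 10.38 and 10.46 on day 3 and 10.87, 10.62 and 10.69 on day 6. The 3 groups did not overlap, but the later step, 0.28 ± 0.12 (95% interval 0.04 to 0.52), did not pass (limma adjusted p = 0.357), and another probe set of the gene had the opposite sign. HMGCS1 is therefore counted as persisting, 0.83 above 0 h on day 6.

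Of 12 measured fatty acid synthesis genes 5 rose by day 3 and these 5 persisted on day 6, against 2.11% and 0.829% of all genes called higher at those times. The other 7 were not called, and the median of the 12 between the times was 0.02. SCD, the desaturase that makes oleate, had 10.24, 10.37 and 10.24 at 0 h, 11.55, 11.27 and 11.51 on day 3 and 11.65, 11.34 and 11.52 on day 6. Its later groups overlapped, 1.16 and 1.22 above 0 h. FASN, the fatty acid synthase, was 0.75 and 0.72 above 0 h. SREBF1, which encodes SREBP1, had 7.53, 7.17 and 7.63 on day 3 and 7.36, 7.36 and 6.98 on day 6, a difference of -0.21 ± 0.13 that is -0.08 without replicate 3. The long noncoding RNA OLMALINC had the largest rise by day 3 of all genes after IFI44L and IFIT1, 2.42, and stood 1.96 above 0 h on day 6, with 5.91, 5.18 and 6.23 and then 5.71, 5.57 and 4.65. Its difference from day 3 to day 6, -0.47, was -0.13 without replicate 3 of day 6 and -0.24 without that of day 3.

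**Figure D4:**
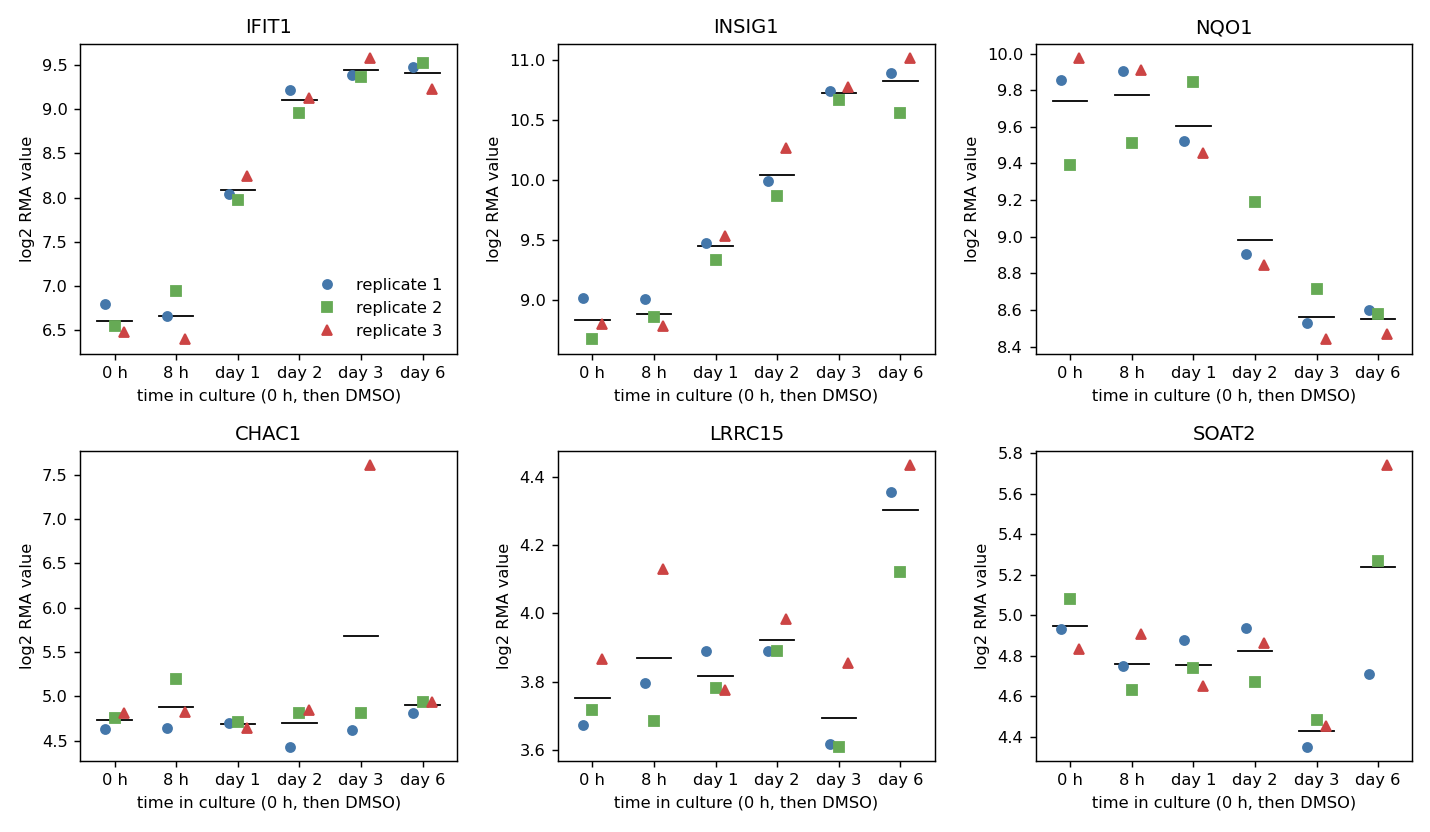
Each panel gives the log2 RMA value of 1 gene on every array of 0 h and of DMSO from 8 h to day 6 (times equally spaced, not to scale, and y axes differ), with colour and shape for the replicate number and a bar at the mean of 3 arrays. For IFIT1, INSIG1 and NQO1 the values of days 3 and 6 overlap and lie apart from 0 h, CHAC1 is at 7.61 in day 3 replicate 3 alone, and LRRC15 and SOAT2 stand higher on day 6 than on day 3.

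Among genes that were lower, some oxidative stress targets of NRF2 were lower at both times. 4 of 19 measured members fell by day 3, where 0.91% of all genes fell, and 4 were called lower on day 6, where 0.895% did; 3 persisted. Without DMSO day 6 replicate 3, 1 member was called lower on day 6, against 0.162% of all genes. The median difference from 0 h was -0.14 on day 3 and -0.15 on day 6, and -0.01 between the times.

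NQO1, a quinone reductase, was the firmest of these. It stood at 9.86, 9.39 and 9.98 at 0 h, 8.53, 8.72 and 8.44 on day 3 and 8.60, 8.58 and 8.47 on day 6. The later groups lay below 0 h and overlapped each other, with NQO1 -1.19 ± 0.18 from 0 h on day 6 (limma adjusted p = 0.000183, and 0.00137 without replicate 3) and -0.01 from day 3. HMOX1, the enzyme that degrades haem, had 5.20, 6.45 and 5.60 at 0 h, 4.19, 4.84 and 4.66 on day 3 and 4.53, 4.71 and 4.36 on day 6. It fell by 1.22 to day 6 (adjusted p = 0.0171), a call lost without replicate 3 (adjusted p = 0.0746). GCLM, a subunit of the enzyme that starts glutathione synthesis, fell by 0.42 by day 3 and was -0.40 from 0 h on day 6, just short of a call (adjusted p = 0.0559). Without day 3 replicate 3 its day 3 call was lost (-0.33, adjusted p = 0.187) and it was called on day 6 (adjusted p = 0.0441).

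Of 14 measured metallothioneins and other metal genes 4 fell by day 3, against 0.91% of all genes, and 5 were called lower on day 6, against 0.895%. Without replicate 3 of day 6, 2 were called lower there, against 0.162%. MT1X, a metal-binding metallothionein, had 12.51, 12.43 and 12.30 at 0 h, 11.95, 12.01 and 12.05 on day 3 and 12.11, 12.04 and 12.12 on day 6. It persisted, -0.33 ± 0.07 from 0 h on day 6, on a probe set that can match several metallothioneins. CIRBP, an RNA-binding protein induced by mild cold, had 11.82, 11.73 and 11.69 at 0 h, 11.12, 11.12 and 11.19 on day 3 and 11.27, 11.32 and 11.16 on day 6, and persisted at -0.50. The transcription factors KLF10 and HES1, targets of TGF-beta and Notch signalling, persisted at -0.74 and -0.98 from 0 h on day 6. The day 3 call of HES1 was lost without day 3 replicate 3 (-0.66, adjusted p = 0.106).

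MPEG1, which encodes a pore-forming protein of phagocytes and B cells, was among the largest lower persisting genes but was uneven. Its values were 6.67, 7.43 and 6.77 at 0 h, 5.49, 6.16 and 6.04 on day 3 and 5.85, 6.73 and 5.23 on day 6. The day 6 arrays spread from 5.23 to 6.73, and 1 of them overlapped 0 h. MPEG1 was -1.02 from 0 h on day 6 (limma adjusted p = 0.029), and the call was lost without replicate 3 (adjusted p = 0.216), where the difference from day 3 went from 0.05 to 0.40.

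Some growth arrest genes rose by day 3, and most of those were not called on day 6. 6 of 28 measured members rose by day 3, against 2.11% of all genes, and 1 of these, CCNG2, was called on day 6, against 0.829%; the other 5 were unresolved. Without day 6 replicate 3, 2 members were called on day 6, against 1.15% of all genes. Without day 3 replicate 3, 2 members were called on day 3, where 249 of all 19775 genes rose. The median difference from 0 h was 0.18 on day 3 and 0.09 on day 6. From day 3 to day 6 the median was -0.18, against -0.02 over all genes, with no member called, and -0.11 without replicate 3 of day 6 and also without replicate 3 of day 3. The list mean over 0 h was 0.20, 0.18 and 0.42 on the day 3 arrays and 0.17, 0.17 and -0.03 on the day 6 arrays. Replicates 1 and 2 thus stood close together at both times, while replicate 3 was the high array of day 3 and the low one of day 6; in day 3 replicate 3, 22 of the 28 members stood above replicates 1 and 2.

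CDKN1A, the cyclin-dependent kinase inhibitor p21, had the lowest value of the list. It had 5.75, 5.48 and 7.01 on day 3 and 5.71, 5.68 and 4.93 on day 6, a difference of -0.64 ± 0.23 that did not pass (limma adjusted p = 0.317). The third array was the highest of day 3 and the lowest of day 6, and the difference was -0.18 without the first of these and -0.38 without the second. HBP1, a repressor of cell cycle genes, stood at 7.15, 6.67 and 6.98 at 0 h, 7.66, 7.57 and 7.75 on day 3 and 7.32, 7.40 and 6.91 on day 6. The day 6 values lay below those of day 3 and overlapped 0 h, with a difference of -0.45 ± 0.12 that did not pass (limma adjusted p = 0.30), and of -0.30 without replicate 3 of day 6. BTG1, an antiproliferative adaptor, had 8.47, 8.51 and 8.83 on day 3 and 8.41, 8.48 and 8.15 on day 6, a difference of -0.25 ± 0.10. It was -0.16 without replicate 3 of day 6 and -0.14 without that of day 3, where the rise of BTG1 from 0 h was no longer called (0.33, adjusted p = 0.112). CCNG2, an unusual cyclin raised in quiescent cells, had 10.09, 10.04 and 10.40 on day 3 and 10.01, 9.92 and 9.87 on day 6, still 0.47 ± 0.10 above 0 h (adjusted p = 0.0106). YPEL3, a growth-suppressive gene, had 6.04, 5.95 and 6.30 and then 5.88, 6.07 and 5.20, a difference of -0.38 that is -0.12 without replicate 3. YPEL3 was then called on day 6 against 0 h (adjusted p = 0.0171), and without day 3 replicate 3 its day 3 call was lost (adjusted p = 0.0574).

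Few proliferation genes were called in the vehicle cultures, as few genes were called at all. With all arrays none of 56 G2 and M phase genes was called in any of the 3 comparisons. Over all genes 3.02% were called on day 3, 1.72% on day 6 and 0.00506% between the times. For a list of this size, no call is near those shares. The median of the G2 and M phase genes was 0.13 on day 3 and 0.03 on day 6 from 0 h. From day 3 to day 6 it was -0.10, with 50 of 56 below 0, where 56.2% of all genes were. Without DMSO day 6 replicate 3 it was -0.06. CDC25C, the phosphatase that opens mitosis, had 7.34, 7.15 and 7.12 on day 3 and 6.71, 6.96 and 6.33 on day 6, a difference of -0.53 ± 0.17 (limma adjusted p = 0.312). It was -0.36 without replicate 3 of day 6, a fit in which CDC25C was called higher on day 3 than at 0 h (adjusted p = 0.0259). Of 54 S phase genes CCNE1, the cyclin of S phase entry, persisted lower at -0.37, with its day 6 call lost without day 6 replicate 3 (adjusted p = 0.161) and its day 3 call without day 3 replicate 3 (adjusted p = 0.101), and the median between the times was -0.03. Ribosome biogenesis genes, targets of MYC, had medians of -0.15 on both days from 0 h. Of 41 measured members 3 fell by day 3, against 0.91% of all genes, and 1 rose, against 2.11%. On day 6, 3 were called lower, against 0.895% of all genes. Without day 6 replicate 3 that count was 1, against 0.162%.

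The amino acid response had the lowest median of all lists from day 3 to day 6, -0.29. Of 42 measured members 36 were below 0, against 56.2% of all genes, and no member was called. That median rested on 1 array. The list mean over 0 h was -0.06 and -0.05 in replicates 1 and 2 of day 3 and 0.67 in replicate 3, and -0.03, -0.07 and -0.14 on day 6. Without DMSO day 3 replicate 3 the median was -0.03 with 24 below 0, and without DMSO day 6 replicate 3 it was -0.20. In the day 3 array 38 of the 42 members stood above the mean of replicates 1 and 2, by a median of 0.56.

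CHAC1, which degrades glutathione and is a late target of ATF4, shows the array most plainly. Its values were 4.63, 4.76 and 4.81 at 0 h, 4.63, 4.81 and 7.61 on day 3 and 4.81, 4.94 and 4.94 on day 6. 1 array of day 3 stood high, and the other 8 values lay between 4.63 and 4.94. The difference from day 3 to day 6 was -0.78 ± 0.40 (SE; limma adjusted p = 0.419) with all arrays and 0.18 without that array. ASNS, asparagine synthetase, had 10.95, 10.91 and 10.79 at 0 h, 10.58, 10.68 and 12.28 on day 3 and 10.69, 10.64 and 10.66 on day 6, and went from -0.52 to 0.04.

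The stress genes downstream of ATF4 had the same shape. DDIT3, the transcription factor CHOP, had 8.24, 8.09 and 9.86 on day 3 and 8.11, 8.06 and 7.74 on day 6, a difference of -0.76 with all arrays and -0.19 without day 3 replicate 3. In that last fit DDIT3 was called lower on day 6 than at 0 h, at -0.41 (adjusted p = 0.00881, and 0.43 with all arrays). SESN2, a leucine sensor that restrains mTORC1, had 6.27, 6.23 and 8.64 and then 6.27, 6.16 and 6.28. ATF4 itself had 11.66, 11.63 and 12.52 and then 11.76, 11.75 and 11.56. In each the third array of day 3 was the high one and without it the groups overlapped. Outside the list the secreted growth factor VEGFA had 5.49, 5.51 and 8.07 and then 5.50, 5.83 and 5.81, and PMAIP1, the BH3-only protein NOXA, had 8.17, 8.13 and 10.23 and then 8.37, 8.08 and 7.82.

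SLC38A2, the neutral amino acid transporter SNAT2, was the member that persisted. It stood at 9.07, 9.26 and 9.45 at 0 h, 10.42, 10.21 and 11.41 on day 3 and 10.29, 10.12 and 10.17 on day 6. All 6 later values lay above 0 h, with SLC38A2 1.42 above on day 3 and 0.93 ± 0.19 above on day 6 (limma adjusted p = 0.00905). From day 3 to day 6 the difference was -0.48 ± 0.19, and -0.12 without day 3 replicate 3. EGR1, an immediate early transcription factor, also had its highest value in that array, with 7.21, 7.03 and 8.55 on day 3 and 7.21, 7.70 and 7.22 on day 6 against 5.86, 6.87 and 5.37 at 0 h. It persisted with all arrays, but its day 3 call was lost without day 3 replicate 3 (adjusted p = 0.109) and its day 6 call without day 6 replicate 3 (adjusted p = 0.0751).

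**Figure D5:**
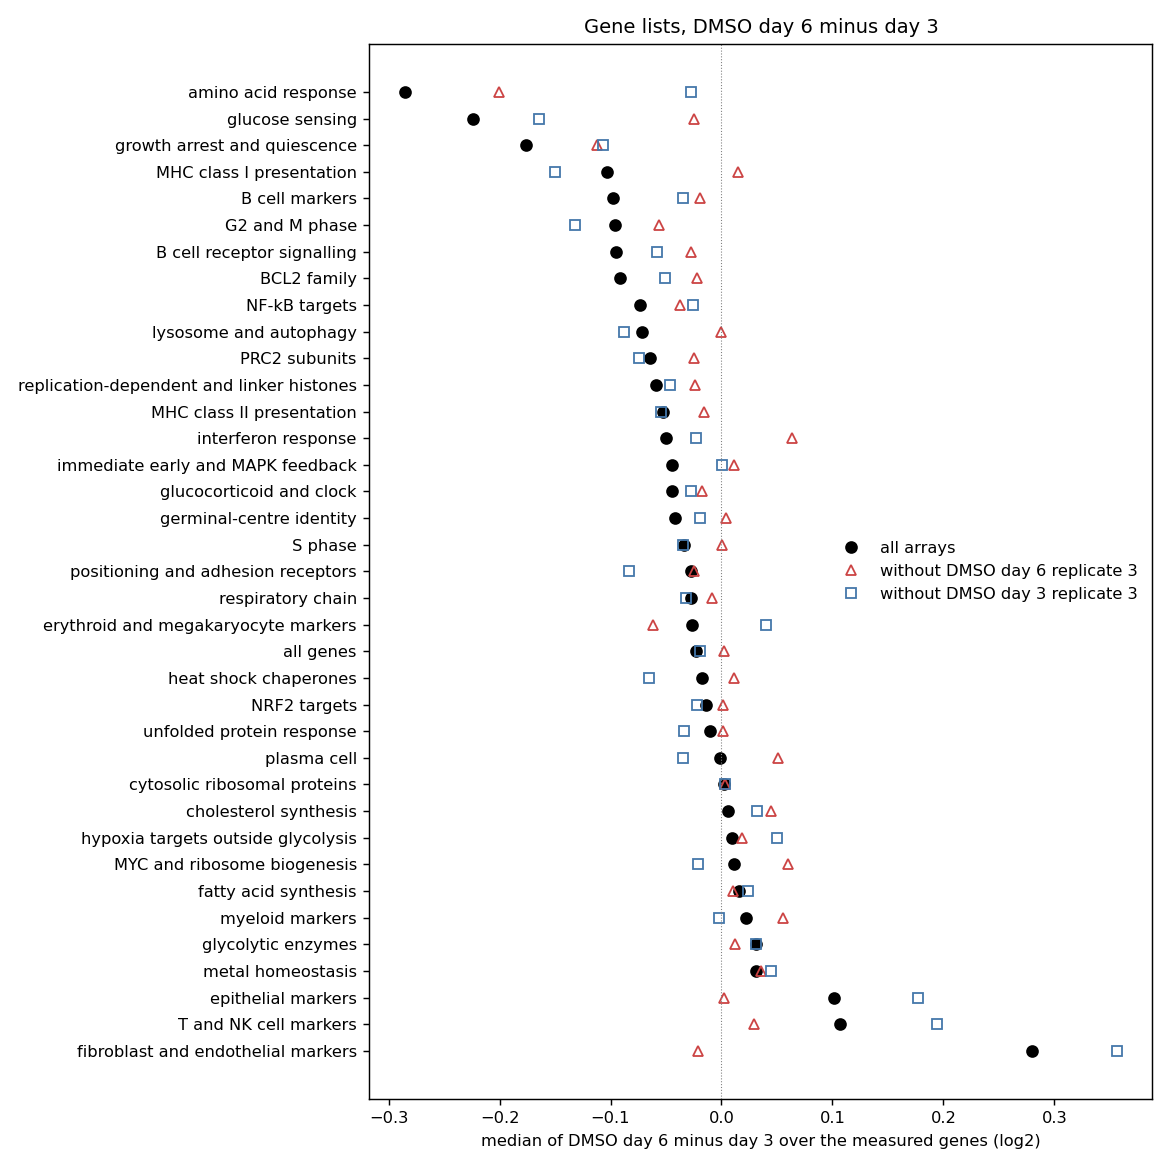
For each gene list, points give the median over its measured genes of DMSO day 6 minus day 3 in log2 units, with all arrays (filled circles), without DMSO day 6 replicate 3 (triangles) and without DMSO day 3 replicate 3 (squares). The amino acid list moves from -0.29 to -0.03 without DMSO day 3 replicate 3, and the fibroblast and endothelial markers from 0.28 to -0.02 without DMSO day 6 replicate 3.

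No B cell marker passed the test between the times, where 1 of all 19775 genes did. All 6 measured B cell markers lay above the array median on each of the 6 arrays, and the log2 of their summed level was 13.67 to 13.69 on day 3 and 13.59 to 13.79 on day 6. MS4A1, which encodes CD20, differed by 0.03 and CD79A, a signalling chain of the B cell receptor, by -0.30 with 8.42, 8.43 and 8.51 and then 8.41, 8.30 and 7.74, which is -0.10 without replicate 3 of day 6. Of the germinal centre list 4 of 28 measured members rose by day 3 and 3 were called higher on day 6, against 2.11% and 0.829% of all genes, and 2 persisted. SERPINA9, a protease inhibitor typical of germinal centre B cells, had 8.06, 8.18 and 8.53 at 0 h, a mean of 9.03 ± 0.031 (SD, n = 3) on day 3 and 9.08, 8.99 and 8.92 on day 6, and persisted at 0.74. Myeloid, erythroid and epithelial markers had 1 to 3 members above the array median on these arrays, those of T and NK cells 4 or 5 of 9, and those of fibroblasts and endothelium 3 to 5 of 7.

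The same interval in EED226 cultures gives the vehicle values their scale. There 6116 genes passed between days 3 and 6, 30.9%, and for 4924 genes, 24.9%, the change differed from that in DMSO in a test of the difference (limma), 14.2% of all genes higher with EED226 and 10.7% lower. Without DMSO day 6 replicate 3 the difference was called in 4509 genes, 22.8%, and the split was even, with 2258 (11.4%) higher and 2251 (11.4%) lower. S phase genes had a median of -1.21 with EED226 against -0.03 with DMSO, and 53 of 54 were lower in the test of the difference. For G2 and M phase genes the medians were -1.31 and -0.10, with 53 of 56 lower. Growth arrest genes had 0.57 against -0.18, with 18 of 28 higher. Interferon genes had 0.25 against -0.05, with 11 of 40 higher, and cholesterol synthesis genes -0.41 against 0.01, with 11 of 21 lower. With that DMSO array left out, these counts were 53 S phase, 54 G2 and M phase and 11 cholesterol synthesis genes lower, and 16 growth arrest and 9 interferon genes higher. The ACTB 3′ minus 5′ difference was 3.50, 4.07 and 4.14 on the EED226 day 6 arrays. On those of DMSO day 6 it was 2.87, 3.26 and 3.29. With this difference as a covariate, a fit chosen after seeing the data, 5413 genes differed between EED226 and DMSO. What part RNA quality had in these counts was not tested.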

How the data were processed

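RNA was extracted with TRIZOL and labelled for Affymetrix arrays by a 3′ in vitro transcription kit, per the labels. The authors deposited log2 values, 1 for each probe set and array, from RMA (background correction, quantile normalization and probe summary), per the submitters' processing notes; the version is not given in the sources used here, nor is the set of arrays that RMA was run on. The 75th percentiles of the deposited arrays ran from 6.10 to 6.74, so their distributions were not equal, and renewed quantile normalization was tried as an alternative. Of 54675 probe sets 41091 had 1 gene symbol, and of these 41037 matched a RefSeq gene. Those gave 19775 genes, each by its brightest probe set, with no filter on dim genes; 10523 had more than 1. Genes of a list without a value were not analysed here.

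Group means of 11 groups were fitted to all 33 arrays with limma 3.58.1 in R 4.3.3 (lmFit, eBayes, two-sided, 22 residual degrees of freedom), with Benjamini-Hochberg adjustment over all 19775 genes and calls at adjusted p under 0.05. No fold change was required. The fit was tested on simulated data with 200 changed genes and independent noise. It made 10 false calls with all arrays. The number of arrays limits the precision.

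Named genes were to be the 10 largest rises and falls called with and without DMSO day 6 replicate 3, the 3 called with all arrays alone (brighter mean at least 5 for both; no gene met either rule), the 3 largest of each class and direction, and the 2 members of each list with the smallest p between the times. LRRC15, SOAT2 and the other genes printed for their role in a list or their single high array were added after their values were seen. The members, the lists and the rules were chosen with earlier results of these data known. Alternatives were other sets of arrays in the fit, scalings, variance models, array weights, an RNA quality covariate, probe set rules, a level filter and each array left out; the fits without replicate 3 of both days and one covariate fit were chosen after seeing the data. Same-numbered arrays of days 3 and 6 deviated together with correlations of 0.160, 0.096 and 0.246, and no label states a shared batch, so numbers were not taken as pairs.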

Additional observations from a re-analysis of the deposited data

Results flagged for a closer look

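In 4924 genes the change from day 3 to day 6 differed between EED226 and DMSO cultures in a test of the difference (limma). Among the genes described above that differed were LRRC15, with an EED226 change minus DMSO change of -0.92 on the log2 scale, NQO1 with -1.27, IFI44L with 1.03 and MPEG1 with 2.52. LRRC15 was picked by its DMSO change of 0.61, which this contrast subtracts, so its call here was partly built in. In DMSO the changes of NQO1, IFI44L and MPEG1 were -0.01, -0.24 and 0.05, none of them called. Without DMSO day 6 replicate 3 the count was 4509, and the values were -0.85 for LRRC15, -1.31 for NQO1, 0.79 for IFI44L and 2.17 for MPEG1, all still called.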

How the results depend on the processing

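The count of genes called between days 3 and 6, 1 with all arrays, was 0 when fitted to the 6 or to the 18 DMSO and 0 h arrays, with a variance trend and robust fit, with the ACTB covariate, with the mean of probe sets, above the median level, at 2-fold or more, and without replicate 3 of both times; leaving out each array in turn gave 0 to 122. Persisting genes, 227, numbered 49 with 9 arrays, 128 with 18, 357 with trend, 454 with array weights, 459 above the median level and 114 with day 2 in place of day 3, and 112 to 244 with an array left out. Unresolved genes, 371, numbered 20, 222, 560 above the median level, 62 with day 2, and 156 to 709 with an array left out. Genes going back, 0, numbered 0 to 14, and new ones, 1, were 0 under 9 or 18 arrays, trend, covariate, probe set mean, level filter and without replicate 3 of both days, and 0 to 108 with an array left out. The 4924 genes differing between EED226 and DMSO were 3168 with 12 arrays, and renewed quantile normalization split them 2548 higher to 2570 lower, against 2802 to 2122. With replicate number as a block, 1 gene was called between the times, 941 passed on day 3 against 0 h and 398 persisted. Day 3 replicate 2 correlated with day 6 replicate 1 (0.103) about as with its own number (0.096). Day 3 replicate 3 correlated at 0.246 with its own number, and at -0.226 and -0.187 with day 6 replicates 1 and 2. Of 1163 values of 69 named genes under the alternatives 24 changed sign, 15 moved beyond their spread and 6 gained a call, all 6 without day 6 replicate 2. Of these genes 43 had other probe sets, 19 with at least 1 of opposite sign, and 26 were read from probe sets that can match several transcripts. The causes were not tested.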

Other observations

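Of 26 measured hypoxia targets outside glycolysis 3 were called higher on day 3 and 3 on day 6 against 0 h, where 2.11% and 0.829% of all genes were, and 2 persisted. Without DMSO day 6 replicate 3, 2 were called on day 6, against 1.15% of all genes. BNIP3L, a mitophagy receptor, had 8.27, 8.23 and 8.23 at 0 h, 8.79, 8.90 and 9.01 on day 3 and 8.84, 8.99 and 9.14 on day 6. Its later values all lay above 0 h, and it persisted at 0.74 ± 0.08 (SE; limma adjusted p = 7.68e-07), with 0.09 between the times.

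IRF1, a transcription factor of the interferon gamma response, had 5.60, 5.66 and 5.54 on day 3 and 5.25, 5.35 and 4.61 on day 6. Its day 6 values lay below those of day 3, by -0.53 ± 0.13 (limma adjusted p = 0.299), and by -0.30 without DMSO day 6 replicate 3. With all arrays it was not called against 0 h at either time, and without that array it was called higher on day 3 (adjusted p = 0.0263). Over heat shock chaperones, cytosolic ribosomal proteins and respiratory chain genes no member was called against 0 h or between the times. Of all genes 3.02% were called on day 3, 1.72% on day 6 and 0.00506% between the times. The medians of these lists were -0.02, 0.00 and -0.03 from day 3 to day 6.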
